A study of Danio rerio with 10 samples.

Results

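Heterozygous ebf3a carriers and their WT siblings were compared at 2 days post-fertilization (dpf) by bulk RNA-sequencing, with 2 heterozygous and 2 WT libraries out of the 10 libraries of the series. Each library at 2 dpf was a pool of 15 to 20 embryos, from which the upper body with the eyes was taken, and the posterior part of each animal was used for genotyping. Heterozygotes carried 1 intact copy of ebf3a and 1 copy of a CRISPR/Cas9-induced frameshift allele, which had been made in AB WT fish and kept by crosses from the F2 generation onwards. WT siblings carried 2 intact copies, and no drug or other treatment was given to either group. The 2 homozygous libraries of the same age entered the model only to estimate the spread between pools and are not described. Nothing in the labels says that the pools came from separate clutches, so p-values rest on the spread between these pools. In the model this spread was partly shared across genes, with 11.0 degrees of freedom from all genes beside 3 of a gene's own (medians). A gene can be higher or lower in a pool through a change in RNA per cell or in the number of cells that express it, and bulk libraries cannot tell these apart.

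Ebf3a belongs to the Collier/Olf/EBF family of transcription factors, which bind DNA as dimers and act in the differentiation of neurons. In humans, a disrupted single copy of EBF3 is enough to cause a neurodevelopmental disorder with hypotonia, ataxia and delayed development, so the question asked of the heterozygous fish was what the loss of 1 copy does to the transcriptome. The libraries list genes by the IDs of the Lawson Lab zebrafish annotation, and 0 of 36351 IDs could be paired with a gene symbol here. The level of ebf3a itself, the markers of the labelled tissue and any list of known target or cell type genes were therefore not analysed here, and genes are described by their values, their read abundance and their place in the order of IDs.

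The heterozygous libraries held 34.7 M and 32.6 M reads counted on genes, and the WT pools held 43.3 M and 47.8 M. Both WT libraries were deeper than both heterozygous libraries, so depth and genotype cannot be told apart from the totals alone. Thinning the heterozygous and WT libraries to 32558436 reads left 90 called genes in place of 86, and 81 of these were the same genes. The homozygous libraries, which entered the same fit, already held fewer reads than this, 30.1 M and 31.4 M. Replicate pools differed by more than sampling noise in each genotype, with a chi-square per degree of freedom of 10.6 in heterozygotes and 7.51 in WT. As a biological coefficient of variation, the replicate difference came to 6.16% for the WT pair and 11.0% for the heterozygous pair. Single libraries were compared by their median absolute difference in log2 CPM over the 22383 genes tested. It was 0.12 between the WT pools, 0.17 between the heterozygous pools and from 0.18 to 0.20 between a heterozygous and a WT pool. As a root mean square, the difference was 0.414 between the WT pools and from 0.488 to 0.505 between a heterozygous and a WT pool. By that measure it was largest between the heterozygous pools, at 0.520. CPM is a gene's reads per M reads of its library after scaling by the TMM method.

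At an adjusted p under 0.05, 86 genes differed between heterozygotes and WT, which was 0.384% of the genes tested (quasi-likelihood test of edgeR, Benjamini-Hochberg adjusted). Of these, 58 were higher and 28 were lower in heterozygotes, or 0.259% and 0.125% of the genes tested. Before adjustment 2586 genes, or 11.6%, had a p under 0.05, and these were split almost evenly, with 1286 higher and 1300 lower. The excess of higher genes was thus found among the called genes and not among the larger set. At an adjusted p under 0.01, 23 genes remained, 21 higher and 2 lower. The log2 fold changes of all genes tested were centred on 0.00 (median) and had quartiles at -0.15 and 0.16.

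The count of called genes rested on single libraries. Without WT replicate 1 it was 6 and without WT replicate 2 it was 17, while without heterozygous replicate 2 it was 182, and without homozygous replicate 1 or 2 it was 195 or 221. With 1 library left in a genotype, that library was assumed to vary like those of the other genotypes. Without heterozygous replicate 1 it was 69, of which 18 were lower. The 28 lower genes leaned on the WT pair most. None of them was called by edgeR without WT replicate 1, where 596 genes were lower at an unadjusted p under 0.05, and a single gene was lower and called without WT replicate 2. All 86 genes kept their direction in each of the 14 other analyses. In all of them both heterozygous libraries lay on the same side of both WT libraries, so leaving out a library could hardly reverse the direction. DESeq2's Wald test called 240 of the 10963 genes that it gave an adjusted p, 132 higher and 108 lower. EdgeR without a filter on low counts called 484 of 30434 genes, 240 higher and 244 lower. The excess of higher genes was smaller or absent in both. Neither covers the same set of genes as the main test, but the counts also differed among genes covered by both. DESeq2 gave an adjusted p to all 8462 genes with a mean from 10 to 100 CPM and all 1746 at 100 CPM or more. It called 145 and 91 of these, where the main test called 51 and 29. EdgeR without a filter called 281 and 130 in the same classes.

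**Figure D1:**
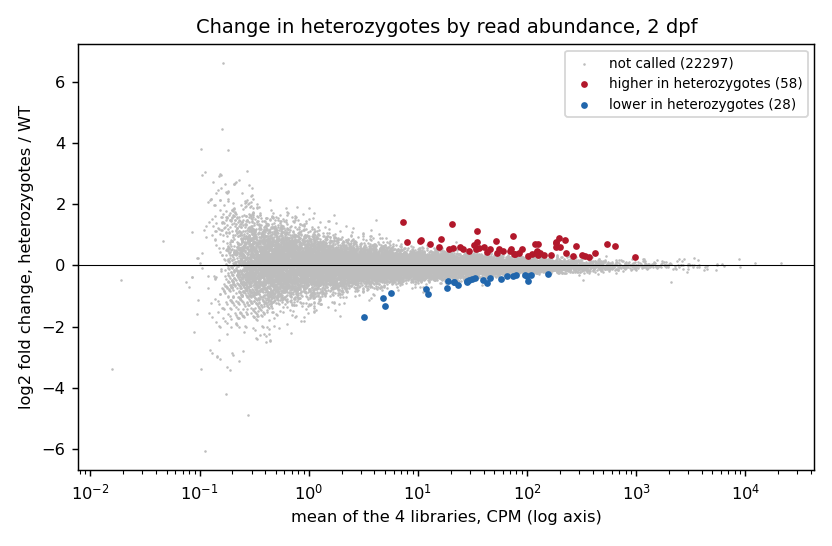
Log2 fold change between heterozygotes and WT at 2 dpf (vertical axis) against the mean CPM of the 2 heterozygous and 2 WT libraries (horizontal log axis), with 1 point for each of the 22383 genes tested. The 58 genes called higher (red) and 28 called lower (blue) lie on the outer edge of the cloud from 3.19 to 978 CPM, and the wide scatter at low CPM holds no called gene.

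The changes were small. The median absolute log2 fold change over the 86 genes was 0.54, a 1.45-fold difference, with quartiles of 0.39 and 0.70. The smallest called change was 0.28 and the largest 1.70 in absolute log2 terms. Only 6 called genes changed by more than 1 on the log2 scale, 3 in each direction, and 36 changed by 0.5 or less. The higher genes had a median of 0.55 and the lower genes a median absolute value of 0.52. These fold changes belong to genes that were selected by their p-value on the same libraries. At the threshold, the last gene called had an adjusted p of 0.0496 and a log2 fold change of 0.47, and the first gene not called had an adjusted p of 0.0502 and a log2 fold change of 0.84.

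In each of the 86 genes both heterozygous libraries lay on the same side of both WT libraries. This was also the case for 45.1% of all genes tested, so the absence of overlap is not in itself a property of the called genes. The gap between the nearest heterozygous and WT libraries ranged from 0.20 to 1.42 in log2 CPM over the called genes, with a median of 0.42. For comparison, the median difference within these genes was 0.14 between the heterozygous pools and 0.05 between the WT pools. The gap was larger than both within-genotype differences in 80 of the 86 genes. Over all genes tested this share was 16.6%. The called genes were chosen on the same libraries by a test that weighs the difference against the spread. A larger share and small within-genotype differences among them follow from that choice, so these values are a description. The other 6 genes were all higher in heterozygotes, and in them the difference between the heterozygous pools was larger than the gap between the nearer pool and WT.

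**Figure D2:**
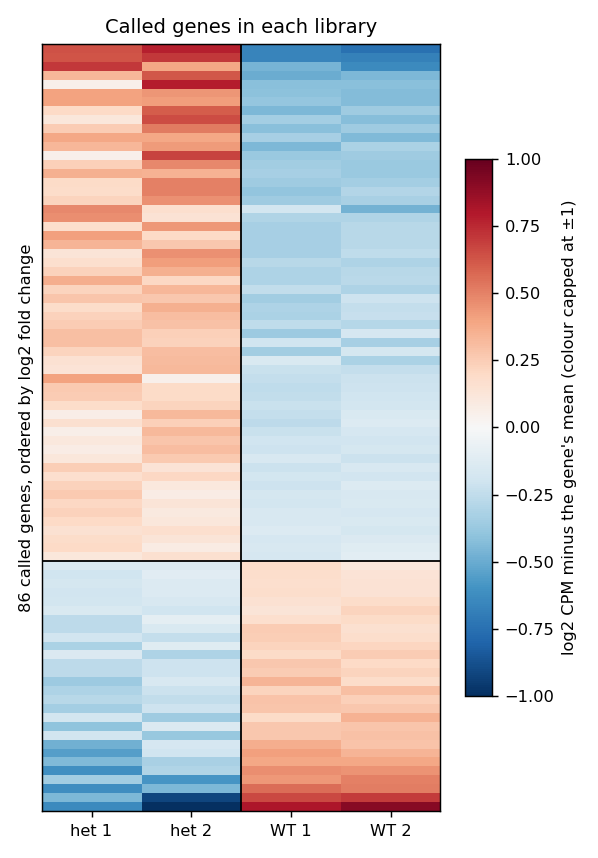
Each row is 1 of the 86 called genes and each column a library, with colour showing log2 CPM minus the gene's mean over the 4 libraries (capped at 1 in either direction). The 58 genes above the horizontal line were higher in both heterozygous pools than in both WT pools and the 28 below it were lower, and the WT columns resemble each other more than the heterozygous columns do.

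2 genes in each direction are described by ID (the called gene with the largest change and the one with the smallest p-value, among those that averaged 1 CPM or more). LL0000018706 rose most. It was at 10.1 and 11.1 CPM in heterozygotes and at 4.10 and 3.87 CPM in WT, from 344, 368, 179 and 185 reads. Both heterozygous pools were well over the WT pools, which differed little. The heterozygous mean was 10.6 ± 0.723 CPM (SD, n = 2) and the WT mean 3.99 ± 0.159 CPM (SD, n = 2), a log2 fold change of 1.41 (standard error 0.16, adjusted p = 0.00120 by edgeR's quasi-likelihood test). Against the same WT libraries, the log2 fold change was 1.34 in pool 1 and 1.48 in pool 2. The gene was chosen with both pools, so the single-pool values are a description.

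LL0000012917 had the smallest p-value of all genes tested. It was at 28.7 and 30.4 CPM in heterozygotes and at 11.8 and 11.7 CPM in WT, from 980, 1008, 514 and 557 reads. The replicates of each genotype lay close together, and the groups were far apart. Its means were 29.5 ± 1.20 CPM (SD, n = 2) and 11.7 ± 0.0759 CPM (SD, n = 2), which gave a log2 fold change of 1.33 (standard error 0.10, adjusted p = 6.97e-05 by edgeR's quasi-likelihood test), or 2.52-fold. The log2 fold change was 1.29 in pool 1 and 1.38 in pool 2. Both LL0000018706 and LL0000012917 were called in every alternative analysis, including those without any single library.

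LL0000006824 fell most. It was at 1.73 and 1.27 CPM in heterozygotes and at 4.72 and 5.05 CPM in WT, from 59, 42, 206 and 241 reads. It had the fewest reads of the called genes, and the heterozygous pools were far under the WT pools. Its means were 1.50 ± 0.326 CPM (SD, n = 2) and 4.88 ± 0.233 CPM (SD, n = 2), which gave a log2 fold change of -1.70 (standard error 0.32, adjusted p = 0.0403 by edgeR's quasi-likelihood test). The call needed all 4 libraries. Without heterozygous replicate 1 or 2 the adjusted p was 0.0862 or 0.101, and without WT replicate 1 or 2 it was 0.379 or 0.394 (edgeR). Over all alternatives the adjusted p ranged from 1.77e-07 to 0.394, and DESeq2's filter on low means left it without one.

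LL0000018769 had the smallest p-value among genes that fell. It was at 82.6 and 84.8 CPM in heterozygotes and at 122 and 119 CPM in WT, from 2820, 2811, 5335 and 5663 reads. Its change was modest but the replicates were close, with means of 83.7 ± 1.54 CPM (SD, n = 2) and 120.4 ± 2.54 CPM (SD, n = 2). It fell by a log2 fold change of -0.52 (standard error 0.06, adjusted p = 0.00184 by edgeR's quasi-likelihood test), with -0.54 in pool 1 and -0.51 in pool 2. Here too the gene was chosen with both pools, and the single-pool values are a description. Without WT replicate 1 the adjusted p was 0.0948 by edgeR, the highest of its alternatives, which began at 2.08e-11.

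**Figure D3:**
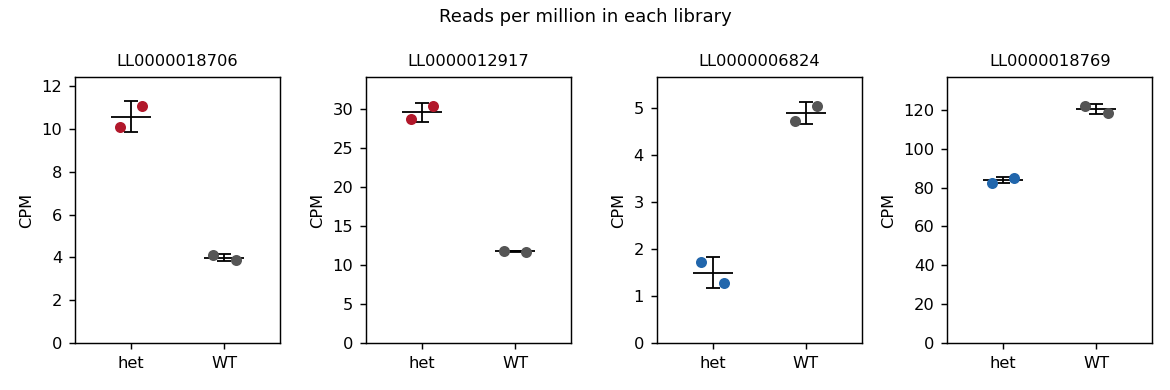
CPM of LL0000018706, LL0000012917, LL0000006824 and LL0000018769 in heterozygous (coloured) and WT (grey) libraries at 2 dpf, with 1 point per pool and the mean ± SD of 2 pools in black; vertical axes start at 0. No heterozygous pool overlaps a WT pool in any of the 4 genes, and the lowest heterozygous value, 1.27 CPM, belongs to LL0000006824.

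Called genes were concentrated among genes with many reads. CPM is not divided by gene length, so these classes rank reads per gene and not transcripts per cell. None of the 4369 genes with a mean under 1 CPM was called by edgeR, although 137 of them had an unadjusted p under 0.05, and DESeq2 gave no adjusted p in this class. EdgeR without a filter on low counts called 3 genes in this class, and 70, 281 and 130 in the classes above. Between 1 and 10 CPM, 6 of 7806 genes were called, or 0.0769%. Between 10 and 100 CPM, 51 of 8462 were called, or 0.603%, and at 100 CPM or more 29 of 1746, or 1.66%. The called genes had a median of 56.4 CPM, against 7.78 CPM for all genes tested.

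The size of change that was called followed the depth. The median standard error of a log2 fold change was 0.70 under 1 CPM, 0.24 from 1 to 10 CPM, 0.10 from 10 to 100 CPM and 0.06 above. The smallest change called in the latter 3 classes was 0.77, 0.31 and 0.28. Changes of the size that was typical of called genes were therefore mostly not detectable at low counts, and an absence of calls there says nothing of whether these genes changed.

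The higher genes had more reads than the lower genes. The higher genes had a median of 76.6 CPM, from 7.29 to 978 CPM, and the lower genes a median of 30.4 CPM, from 3.19 to 156 CPM. Part of this came from 15 higher genes with neighbouring IDs, described below, which had a median of 185 CPM. The other 43 higher genes had a median of 55.6 CPM. At 100 CPM or more 26 of the 29 called genes were higher, from 10 to 100 CPM 30 of 51, and from 1 to 10 CPM 2 of 6. At an unadjusted p under 0.05 the same classes gave no such excess, with 182 higher and 208 lower genes at 100 CPM or more and 691 and 723 from 10 to 100 CPM. The CPM of the 58 higher genes summed to 9215 and 9747 in heterozygotes and to 6667 and 6798 in WT. Of these sums, the 15 genes with neighbouring IDs held 3135 and 3957 in heterozygotes and 2222 and 2276 in WT. The CPM of the 28 lower genes summed to 1061 and 1101 in heterozygotes and to 1457 and 1439 in WT.

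**Figure D4:**
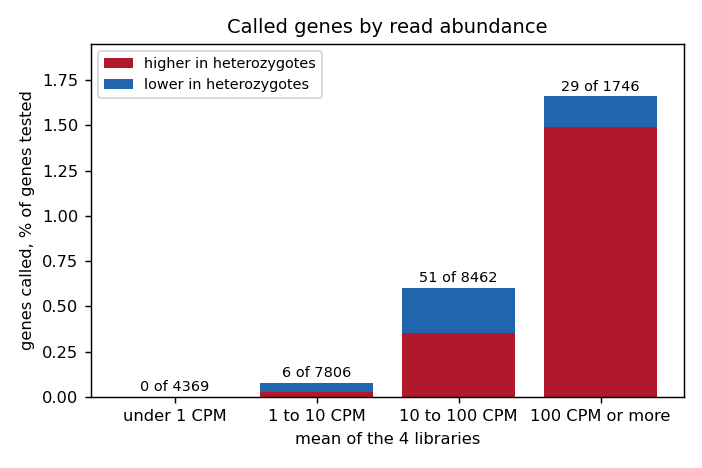
Share of tested genes that were called (vertical axis, percent) in 4 classes of mean CPM over the 4 libraries, split into genes higher (red) and lower (blue) in heterozygotes, with the number called out of the number tested above each bar. The share rises from 0 of 4369 genes under 1 CPM to 29 of 1746 at 100 CPM or more, where 26 were higher.

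To see whether each heterozygous pool showed the changes by itself, each pool was set against both WT pools in a model whose spread came from the WT and homozygous pairs, which assumes that a single heterozygous pool varies like these. Pool 1 differed from WT in 156 genes, 84 higher and 72 lower, or 0.697% of the genes tested. Pool 2 differed in 65 genes, 49 higher and 16 lower, or 0.29%. The comparisons share both WT libraries. These counts fell to 65 and 47 without WT replicate 1 and to 63 and 38 without WT replicate 2. They rose to 2370 and 1479 without homozygous replicate 1 and to 2422 and 1498 without homozygous replicate 2, so either count depended on the libraries that gave the spread.

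Of the 86 genes, 62 were called in pool 1 and 41 in pool 2. Both counts changed when 1 homozygous or 1 WT library was left out at a time. Pool 2 had the larger count without either WT replicate, so neither the counts nor the order of the pools was stable. All 86 had an unadjusted p under 0.05 in either pool, against 12.7% and 9.57% of the genes tested. The 86 genes were selected with both pools, so these counts describe the genes and do not test them. Taken per gene with all libraries, and subject to the same dependence, 34 were called in both pools, 28 in pool 1 alone, 7 in pool 2 alone and 17 in neither. Of the 58 higher genes, 47 were called in pool 1 and 37 in pool 2, and 31 in both. Of the 28 lower genes, 15 were called in pool 1, 4 in pool 2 and 3 in both.

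The median sizes in the pools were close. The genes were selected with both pools, which are set against the same WT libraries, so near medians follow in part from the choice. Per gene, the pools differed by a median of 0.14 and by up to 0.73 on the log2 scale. The median log2 fold change of the higher genes was 0.49 in pool 1 and 0.55 in pool 2, with ranges of 0.25 to 1.34 and 0.22 to 1.48. For the lower genes the medians were -0.52 and -0.46, with ranges of -1.50 to -0.29 and -1.94 to -0.27. Pool 1 lay farther from WT in 42 of the 86 genes and pool 2 in 44. In the lower genes pool 1 was the farther in 20 of 28.

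**Figure D5:**
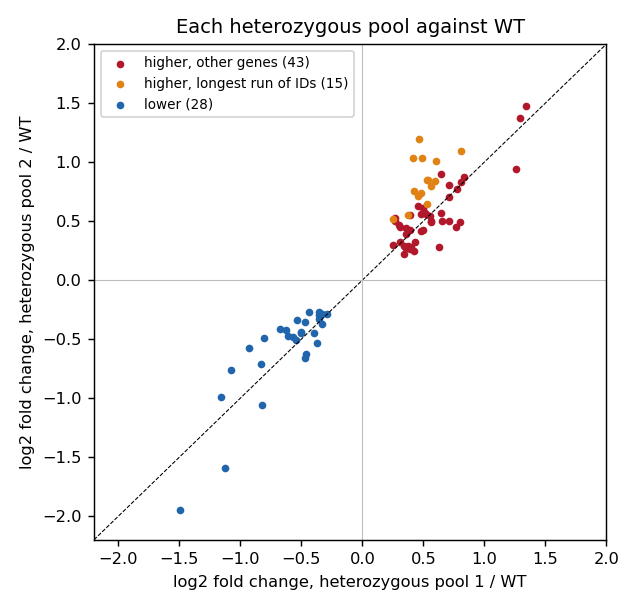
Log2 fold change against WT of heterozygous pool 1 (horizontal axis) and pool 2 (vertical axis) for the 86 called genes, with equality dashed; both pools are compared with the same WT libraries. The other higher genes (red) lie on both sides of the line. Of the 28 lower genes (blue), 20 lie above it, farther from WT in pool 1. The 15 genes of the longest run of IDs (orange) all lie above it, higher in pool 2.

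The pools were also compared with each other, 1 library against 1, with the spread again taken from the WT and homozygous pairs. At this spread 48 genes differed at an adjusted p under 0.05, or 0.214% of the genes tested, with 12 higher in pool 1 and 36 higher in pool 2. The count was 809 without homozygous replicate 1 and 831 without homozygous replicate 2, with 20 of the 86 genes in either, so it depended on the libraries that gave the spread. In the 48 genes the median absolute log2 difference was 0.53, and their median abundance was 196 CPM. The 86 genes called between genotypes had medians of 0.54 and 56.4 CPM. Each set was chosen by its p-values, from unlike numbers of libraries and at unlike abundance. The medians therefore do not compare the size of pool and genotype differences. In 31 of the 48 genes both WT libraries lay between the heterozygous pools. The 48 genes were chosen because the heterozygous pools lay far apart, which favours this order. Its share over all genes tested was not determined, so the 31 are a description. Of the same 48 genes, 4 were among the 86 called between genotypes and 44 were not. At an unadjusted p under 0.05 the pools differed in 23 of the 86 genes, against 7% of the genes tested.

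Some genes were called in a pool without being among the 86. There were 94 such genes for pool 1, 37 higher and 57 lower, with a median absolute log2 fold change of 0.49 in pool 1 and a median of 0.15 in that direction in pool 2. There were 24 for pool 2, 1 of them also among the 94, 12 higher and 12 lower, with a median of 0.46 in pool 2 and of 0.14 in that direction in pool 1. A smaller value in the other pool follows from choosing genes that passed in a pool and not in the joint comparison, and both values use the same WT libraries, so they are a description.

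Part of the higher genes had neighbouring IDs. Of the 58 higher genes, 17 had another called gene within 5 IDs, and of all 86 called genes 21 had. Neighbouring IDs were not particular to the genotype comparison. Of the 48 genes called between the heterozygous pools, 21 had another of the 48 within 5 IDs. In the order of the IDs, 15 of the 58 higher genes fell within 19 consecutive IDs, each within 5 IDs of the next. IDs could not be placed on the genome here, and reads shared between similar genes could not be checked. All 19 IDs were tested and all 19 had a positive log2 fold change, where 11333 of the 22383 genes tested had a positive value and 0.259% were called higher. The run was found among called genes, so these counts describe it and do not test it. The 15 called genes had log2 fold changes of 0.39 to 0.96, with a median of 0.70, and from 40.1 to 542 CPM. Summed over the 19 IDs, the libraries were at 3724 and 4636 CPM in heterozygotes and 2731 and 2794 CPM in WT. Both heterozygous sums were above both WT sums, and pool 2 was the higher of the heterozygous pools.

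In each of the 15 genes pool 2 was higher than pool 1, by 0.12 to 0.73 on the log2 scale. Their median log2 fold change against WT was 0.49 in pool 1 and 0.84 in pool 2, and all 15 were called in each pool. The difference between the pools was called in 3 of the 15 genes, against 0.214% of the genes tested. It had an unadjusted p under 0.05 in 13, against 7% of the genes tested. These counts, too, depended on the libraries that gave the spread. Of the 4 genes called between the pools among the 86, 3 were in the run. The 43 higher genes outside the run showed no such lean. Their median was 0.49 in pool 1 and 0.50 in pool 2, with pool 1 the farther from WT in 22 genes and pool 2 in 21, and 32 were called in pool 1 and 22 in pool 2. Without the run, 43 genes were higher and 28 lower.

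Called genes with neighbouring IDs were otherwise few. A second run held 4 lower genes within 6 consecutive IDs, LL0000018769 among them. Its 6 IDs summed to 315 and 324 CPM in heterozygotes and 411 and 409.9 CPM in WT. Of its 6 genes, 5 were lower and 1 was higher in heterozygotes. The last run was a pair of adjacent IDs, both higher, at 496 and 503 CPM summed in heterozygotes and 402 and 393 CPM in WT. Both of these runs were found among called genes, none of which overlapped between the groups, so their sums are a description. The other 65 called genes had no called gene within 5 IDs.

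Of the 86 genes, 6 were called in all 13 alternative analyses that tested for any difference, including each that left out a library, and all 6 were higher in heterozygotes. They were LL0000018706, LL0000012917, 3 genes of the longest run and a further gene outside it. Their log2 fold changes ranged from 0.69 to 1.41 and their means from 7.29 to 542 CPM. Every one of the 86 genes was called in at least 7 of the 13. Most of this floor came from the choice of alternatives. All 86 were called with DESeq2's size factors, under each other filter, and when either or both homozygous libraries were dropped. These fits kept every heterozygous and WT library on which the 86 genes had been chosen, so the floor is a description and does not test stability. Against a log2 fold change of 0.2, rather than none, 22 genes were called, 19 higher and 3 lower (glmTreat of edgeR).

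The pools can also be paired so that no library is used in both comparisons, heterozygous pool 1 with WT pool 1 and pool 2 with WT pool 2. Across the 22383 genes, which are not independent replicates, the log2 differences of these pairs had a Pearson correlation of 0.0963 and a Spearman correlation of 0.175, and 58.9% of genes had the same sign in both. The likeness grew with abundance. The Pearson correlation was 0.0411 under 1 CPM, 0.166 from 1 to 10 CPM, 0.371 from 10 to 100 CPM and 0.384 at 100 CPM or more, where 66.8% of genes had the same sign. With the WT pools exchanged, it was 0.107 over all genes and 0.596 at 100 CPM or more. In either pairing the heterozygous library was the shallower, so depth is shared by the pairs.

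Genes with a large difference in a pair were also read in the other pair. A smaller value there follows from the choice, so the values are a description. Of all genes, 58.9% had the same sign in both pairs, which includes genes under 1 CPM. This share was 56.1% from 1 to 10 CPM, 63.5% from 10 to 100 CPM and 66.8% at 100 CPM or more. Among genes that averaged 1 CPM or more, 126 were higher by more than 1 on the log2 scale in the pair of pool 1, with a median of 1.18, and in the other pair their median was 0.20. Of these 126 genes, 81 had a positive sign in the other pair and 11 were past 1 again. In the opposite order, 97 genes were chosen in the pair of pool 2, of which 67 were positive and 11 past 1 in the pair of pool 1, with a median of 0.30. Of 159 genes lower by more than 1 in the pair of pool 1, 101 were negative in the other pair, 12 past -1, with a median of -0.19. Of 111 lower genes chosen in the pair of pool 2, 72 were negative in the other pair, with a median of -0.24.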

How the data were processed

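Raw counts of reads per gene ID, without normalization, were deposited by the authors. They aligned paired-end reads with STAR to GRCz11 with the Lawson Lab annotation. For its own results the paper reports rlog normalization with DESeq2. The paper and the submitters' processing notes (STAR 2.7.3a) give different STAR versions, and the strand setting of the counting is not given in the sources used here, so overlapping genes are uncertain. The deposited counts were tested with edgeR 4.0.16 in R 4.3.3. Genes were kept by filterByExpr, libraries were scaled by TMM, and the 6 libraries at 2 dpf were fitted as 3 genotypes with glmQLFit and glmQLFTest. Adjustment was by Benjamini-Hochberg, across the 22383 genes that passed. Reads on genes ranged from 30.1 to 47.8 M per library. Standard errors came from the fitted model. Log2 CPM used a prior count of 2. The 4 libraries of 5 dpf were not used. Alternatives were DESeq2 1.42.0, its size factors, other filters, no homozygous libraries, a replicate block, thinned reads, glmTreat and leaving out each library. The scripts were tested on simulated data. Named IDs were, in each direction, the called gene without overlap and with a mean of at least 1 CPM that had the largest change and the one with the smallest p. No lists or markers could be scored. The comparison, lists and rules were chosen with earlier results of these data known.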

Additional observations from a re-analysis of the deposited data

How the results depend on the processing

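Scaling by DESeq2's size factors, a filter of at least 10 counts in every library and thinned reads kept the count of called genes within 1.5 times of 86. DESeq2's Wald test called 240 of 10963 genes (132 higher, 108 lower) and no filter on low counts 484 of 30434 (240 higher, 244 lower). Heterozygous and WT libraries alone gave 176 of 22169 (100 higher, 76 lower), and glmTreat 22 of 22383 (19 higher, 3 lower). Leaving out single libraries gave 6 to 221 called genes, 6 to 135 higher and 0 to 88 lower. For the single pools it gave 63 to 2422 genes in pool 1, 38 to 1498 in pool 2 and 48 to 831 between the pools, and no filter gave 681, 334 and 200. Why these counts moved was not tested. In the single-pool fits the spread came from the WT pair alone without a homozygous library, and from the homozygous pair alone without a WT library. The biological coefficient of variation was 6.16% for the WT pair and 12.7% for the homozygous pair. The correlation of pairs without a shared library was 0.0756 with a prior count of 0.5, 0.117 with 5 and 0.107 with exchanged WT pools. With the replicate number as a block, 51 genes were called, 41 higher and 10 lower. Replicate numbers are not said to mark a shared clutch, and deviations of same-numbered libraries correlated by -0.0116 between heterozygotes and WT, -0.00393 between heterozygotes and homozygotes and -0.0249 between WT and homozygotes. No direction of a named gene reversed, but these genes were chosen without overlap between the groups, which left little room for it.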

Other observations

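Of the genes tested, 2 had no reads in either library of one genotype and at least 10 reads over the pair of the other, and neither was called. The first had 11 reads in each heterozygous library and 0 in each WT library (adjusted p = 0.136 by edgeR's quasi-likelihood test). The second had 0 reads in each heterozygous library and 17 and 3 in the WT libraries (adjusted p = 0.308 by the same edgeR test).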
